A study of Mus musculus with 7 samples.

Results

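The genes described here are 9 genes of necroptosis, pyroptosis and the caspases that steer them: Ripk1, Ripk3, Mlkl, Casp8, Nlrp3, Pycard, Casp1, Casp4 and Gsdmd. They were chosen by symbol, through the transcript accession that the array files give for each probe, and all 9 were found, with 11 probes between them, among 21154 genes named by 28026 probes. Casp4 and Nlrp3 had 2 probes each and the others had 1. The question that the study's design puts to them is whether their transcripts differ between hearts with and without the cardiomyocyte deletion of p38α while angiotensin II is given.

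Heart apex RNA of male C57BL/6 mice was hybridised to 1-colour Agilent whole-genome arrays, 1 heart per array. The 4 control hearts were homozygous for floxed p38α (p38α flox/flox, exons 2 and 3 flanked by loxP sites). The 3 knockout (KO) hearts carried the same alleles plus 1 copy of the α-MHC mercremer transgene, in which the cardiomyocyte promoter of α-myosin heavy chain drives a Cre recombinase fused to mutated oestrogen receptor parts. Every mouse of both groups received hydroxytamoxifen, at 500 µg daily over 10 days, starting when it was 6 weeks old, and then angiotensin II at 1.5 mg/kg per day from an osmotic minipump for 48 hours, with tissue taken at 3 months. The design text speaks of a further KO heart, which was not analysed here. There was no group without angiotensin II, and the transgene was present in KO hearts alone, so the deletion and the Cre protein cannot be told apart. Cells other than cardiomyocytes keep p38α in this model, and the apex holds all cell types of the heart.

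Necroptosis and pyroptosis are forms of death in which the plasma membrane breaks and the cell's content leaks out. In necroptosis, death receptors such as TNF receptor 1 engage the kinase RIPK1, which recruits the kinase RIPK3, and RIPK3 phosphorylates the pseudokinase MLKL, which then permeabilises the membrane. Caspase-8 cuts RIPK1 and RIPK3 and so holds this route back. In pyroptosis, a sensor such as NLRP3 gathers the adaptor ASC (encoded by Pycard) and caspase-1 into an inflammasome, caspase-1 matures interleukin-1β and interleukin-18, and gasdermin D (Gsdmd) forms the pores. The mouse gene Casp4, also called caspase-11, codes for a caspase that senses bacterial lipopolysaccharide in the cytosol and cuts gasdermin D. In the heart, RIPK3 and the NLRP3 inflammasome are known chiefly from ischaemic and haemodynamic injury, in cardiomyocytes and in the leukocytes that enter the tissue.

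Promoter sequence was available from RefSeq (GRCm38.p6) for 8 of the 9 genes, in 11 windows of 300 bases, each running from 250 bases before a transcript start to 50 after it. Both strands were searched for the AP-1 motif TGANTCA, for the interferon-stimulated response element (ISRE) and for the NF-kB consensus. None of the 8 genes held the AP-1 motif, against 7.81% of all 32851 windows. The interferon element was found in 1 gene, Ripk1, and is held by 3.44% of all windows. The NF-kB consensus was found in 2 genes, Casp4 and Nlrp3, and is held by 8.46% of all windows. These counts are by gene and the shares by window, and Ripk1, Casp4 and Nlrp3 had more than 1 window. The stretches of 250 bases before the start are shown for a gene that differed between the groups and held no match, Ripk3 (chr14:55788858-55789107, minus strand), and for the gene with the most NF-kB matches, Casp4 (chr9:5308599-5308848, plus strand). Capitals mark the NF-kB matches, of which Casp4 had 3, and 2 of these overlap each other in the first capital run. A match is a description of the letters and says nothing about binding.
Ripk3: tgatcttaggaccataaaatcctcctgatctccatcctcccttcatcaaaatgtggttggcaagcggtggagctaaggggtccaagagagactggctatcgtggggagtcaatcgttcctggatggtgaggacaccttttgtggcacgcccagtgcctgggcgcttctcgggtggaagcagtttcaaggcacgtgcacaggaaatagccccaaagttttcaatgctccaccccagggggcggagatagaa
Casp4: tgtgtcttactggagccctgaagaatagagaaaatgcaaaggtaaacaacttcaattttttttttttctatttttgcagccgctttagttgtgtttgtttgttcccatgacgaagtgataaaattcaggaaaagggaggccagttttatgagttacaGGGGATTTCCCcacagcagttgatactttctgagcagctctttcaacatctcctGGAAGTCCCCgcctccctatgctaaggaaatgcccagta

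Levels are given as log2 of the processed signal minus the 75th percentile of the same array, so that 0 is the level of that percentile, and a difference is KO minus control in log2 units. All 7 arrays lay on 1 slide and were scanned once. Each array had 46.0% to 49.6% of its 55681 probes well above background, and the number of hearts limits the precision. Over all 22341 features tested with limma and Benjamini-Hochberg adjustment, 25.2% passed the threshold of 0.05: in KO hearts 10.2% were higher and 15.0% were lower, and the median difference was -0.06. The brighter Mapk14 probe, for the p38α gene itself, lay between 3.40 and 3.67 in control and between 3.71 and 3.76 in KO hearts, a difference of 0.22 with an adjusted p of 0.202; whether it lies in the deleted exons is not given, so it checks nothing. Esr1 had 3 probes. The brightest was well above background in 3 of 3 KO hearts and 0 of 4 controls and was at least 40.7-fold higher in KO hearts (limma adjusted p 0.0123), with KO levels of -0.82, 0.07 and 4.50 and a bound of 13.2-fold without KO heart 3. The other 2 probes were not well above background in any heart. The transgene contains oestrogen receptor sequence; what each probe covers is not given. All 12 cardiomyocyte markers were well above background.

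The 3 core genes of necroptosis, Ripk1, Ripk3 and Mlkl, rose in KO hearts, by 1.85, 2.46 and 1.69 times. The other genes tested were Casp8, Pycard, Casp1, Casp4 and Gsdmd, and their differences were positive but did not pass. Thus 3 of 8 genes tested (37.5%) were higher, beside 10.2% of all features; Nlrp3 was below the filter on low signal and was not tested. In 4 of the 8, all 3 KO hearts lay above all 4 controls, beside 17.6% of the 22302 features with a value in all 7 hearts; 21.4% had all KO hearts below all controls, and 39.0% did not overlap in either direction. The median difference of the 8 genes was 0.45, against -0.06 over all features, and the 8 differences ran from 0.23 to 1.30. The genes were chosen with earlier results of these data known. The comparisons with all features are therefore descriptions and do not test whether these genes stand out.

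**Figure D1:**
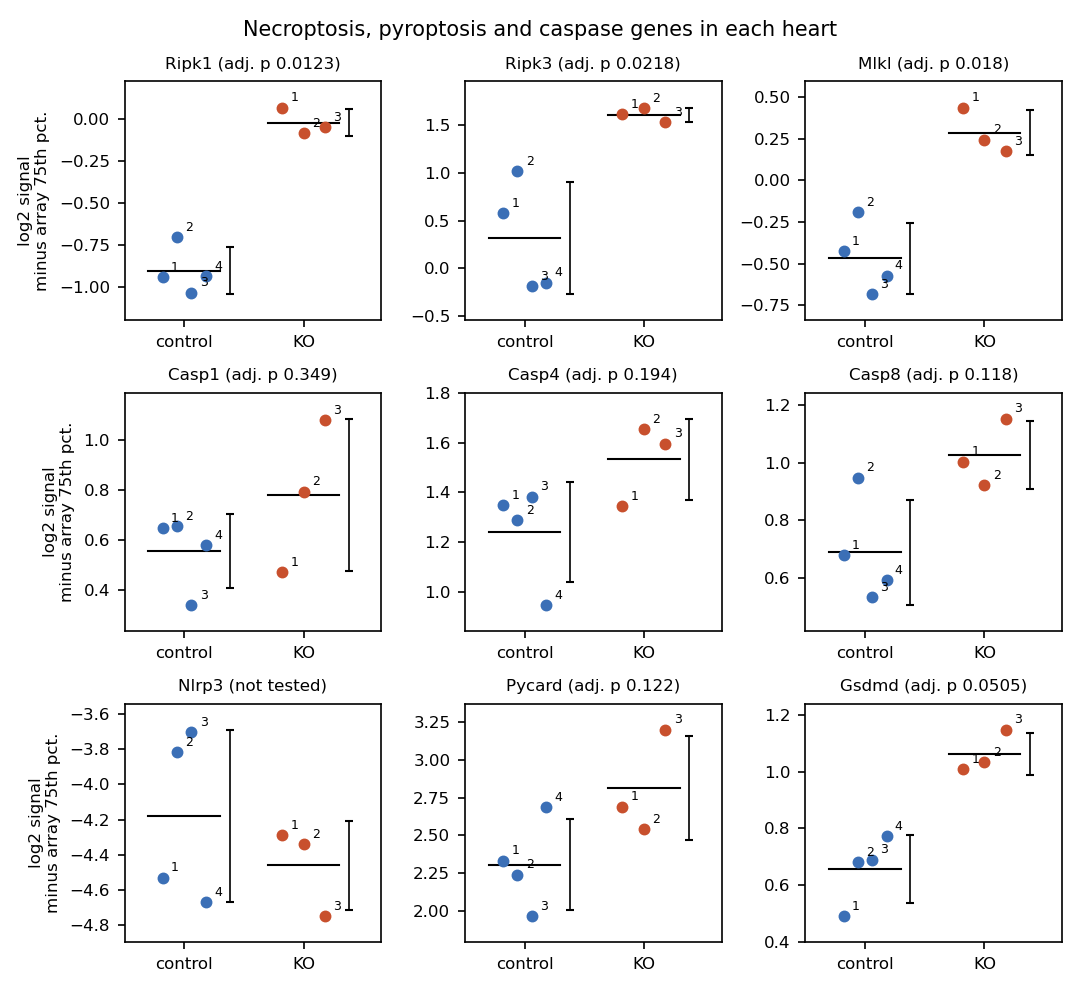
Level of each of the 9 genes in each heart, as log2 of the processed signal minus the array's 75th percentile; each point is 1 heart (4 control, 3 KO) and bars are group means. For Ripk1, Ripk3, Mlkl and Gsdmd the KO points lie above every control point, and for the others the groups overlap.

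Ripk1, the kinase scaffold at the TNF receptor, had levels of -0.94, -0.70, -1.03 and -0.94 in control hearts 1 to 4 and of 0.07, -0.08 and -0.05 in KO hearts 1 to 3. The 2 groups did not overlap, and the spread within each was small beside the gap between them. Controls had a mean of -0.90 ± 0.14 (SD, n = 4) and KO hearts one of -0.02 ± 0.08 (SD, n = 3), a difference of 0.88 ± 0.13 (SE; 95% interval 0.58 to 1.19; limma adjusted p 0.0123). On the linear scale the processed signal was 167 to 289 in controls and 384 to 453 in KO hearts. The two-sided exact permutation p, over 35 ways to split the hearts, was 0.0571 for Ripk1 and also for Ripk3, Mlkl and Gsdmd, the smallest p that this design allows. The call was lost without KO heart 1 (adjusted p 0.0650).

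Ripk3, the kinase that activates MLKL, had levels of 0.57, 1.02, -0.19 and -0.15 in control hearts 1 to 4, and of 1.62, 1.68 and 1.53 in the KO hearts. The KO hearts were close together, whereas control hearts 1 and 2 lay above control hearts 3 and 4. Controls averaged 0.31 ± 0.59 (SD, n = 4) and KO hearts 1.61 ± 0.08 (SD, n = 3), a difference of 1.30 ± 0.30 (SE; 95% interval 0.61 to 1.99; limma adjusted p 0.0218). Processed signals were 300.0 to 954 in controls and 1148 to 1358 in KO hearts. Control hearts 1 and 2 and KO heart 1 lay in slide row 1 and the others in row 2, and the difference was 0.82 within row 1 and 1.78 within row 2. The call was lost without KO heart 1, without KO heart 2 and without control heart 4 (adjusted p 0.0903, 0.0645 and 0.0538).

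Mlkl, the pseudokinase that carries out necroptosis, had levels of -0.43, -0.19, -0.68 and -0.57 in control hearts and of 0.44, 0.24 and 0.18 in KO hearts. All KO hearts were above all controls. Controls averaged -0.47 ± 0.21 (SD, n = 4) and KO hearts 0.29 ± 0.14 (SD, n = 3). The difference was 0.75 ± 0.16 (SE; 95% interval 0.39 to 1.12; limma adjusted p 0.0180). It was 0.75 within slide row 1 and 0.84 within row 2, close to the values of 0.89 and 0.92 for Ripk1. Its call was lost without KO heart 1 and without KO heart 2 (adjusted p 0.0895 and 0.0539).

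**Figure D2:**
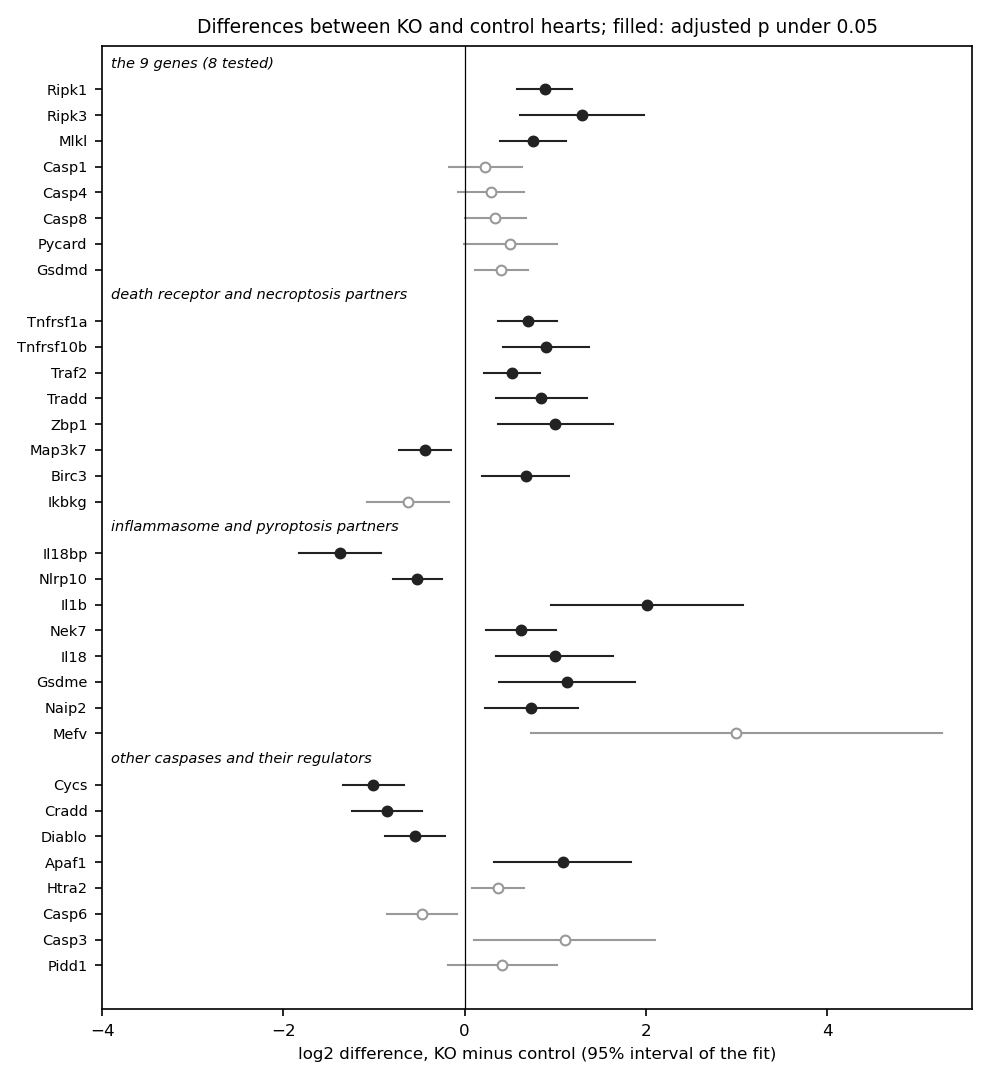
Difference between KO and control hearts in log2 units, with its 95% interval, for the 8 genes tested and for up to 8 genes with the lowest p from each partner list. Among the 8 genes, the intervals of Ripk1, Ripk3, Mlkl and Gsdmd exclude 0, and Gsdmd has a limma adjusted p of 0.0505.

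Casp8, the initiator caspase of death receptors, had levels of 0.68, 0.95, 0.53 and 0.59 in controls and of 1.004, 0.92 and 1.15 in KO hearts. Control heart 2 lay within the range of the KO hearts. The difference of 0.34 ± 0.15 (SE; 95% interval -0.00069 to 0.68) did not pass (limma adjusted p 0.118).

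Among the inflammasome genes, Pycard, the ASC adaptor, had processed signals of 1335 to 2517 in controls and 2466 to 3651 in KO hearts. Its log2 levels were 2.33, 2.24, 1.96 and 2.69 in controls and 2.69, 2.54 and 3.20 in KO hearts. The ranges met at control heart 4, and the difference of 0.51 ± 0.22 (SE; 95% interval -0.01 to 1.02) did not pass (limma adjusted p 0.122).

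Casp1, the caspase that matures interleukin-1β, had levels of 0.65, 0.65, 0.34 and 0.58 in controls and of 0.47, 0.79 and 1.08 in KO hearts. KO heart 1 lay below 3 of the 4 controls, and the groups overlapped. The difference was 0.23 ± 0.17 (SE; 95% interval -0.18 to 0.63; limma adjusted p 0.349), and it was -0.18 within slide row 1 and 0.48 within row 2.

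Casp4 had levels on its brighter probe of 1.35, 1.29, 1.38 and 0.94 in controls and of 1.35, 1.66 and 1.60 in KO hearts. The difference was 0.29 ± 0.16 (SE; 95% interval -0.07 to 0.66; limma adjusted p 0.194). Its other probe gave 0.41 ± 0.19 (SE; adjusted p 0.131), the same direction, and neither passed. In RefSeq's gene order Casp1, Casp4 and Casp12 are neighbours, with no protein-coding gene between them, and none of the 3 passed with all 7 hearts. Without KO heart 3, Casp12 passed as lower in KO hearts.

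Nlrp3, the inflammasome sensor, was near background. Its brighter probe had levels of -4.53, -3.81, -3.70 and -4.67 in controls and of -4.29, -4.34 and -4.75 in KO hearts, with processed signals of 14.7 to 33.5. It was well above background in 2 of 4 control hearts and in 0 of 3 KO hearts, and the groups overlapped. Its other probe was not well above background in any heart. A difference in Nlrp3 could not be measured at this signal.

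Gsdmd, the pore former of pyroptosis, had levels of 0.49, 0.68, 0.69 and 0.77 in controls and of 1.01, 1.03 and 1.15 in KO hearts. The groups did not overlap. The difference was 0.40 ± 0.13 (SE; 95% interval 0.11 to 0.70), with a limma adjusted p of 0.0505, which misses the threshold of 0.05. It is the gene with the most spots, 10 of 1 probe on each array, and their SD was 0.032 to 0.068 log2 units per array. With the filter on all arrays, with normexp background correction, with slide row as a block or with a trended and robust variance the adjusted p was 0.0439, 0.0394, 0.0401 and 0.0412; in the other 13 alternatives it did not pass, up to 0.156 with no filter.

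**Figure D3:**
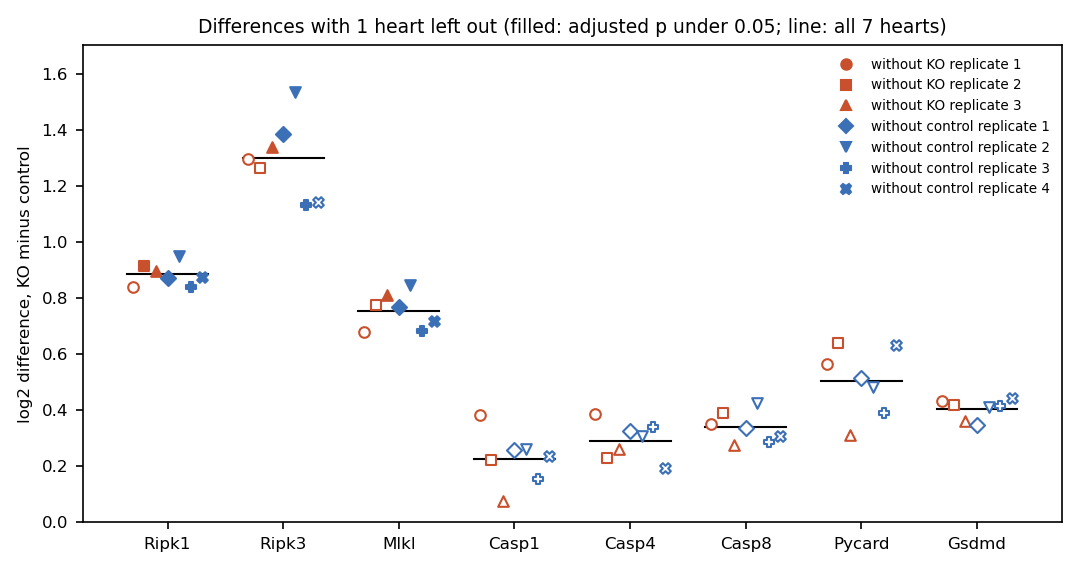
Difference between KO and control hearts in log2 units for each gene, in the full fit and with each heart left out in turn. All 8 differences stay above 0, with ranges of 0.84 to 0.95 for Ripk1 and 0.08 to 0.38 for Casp1.

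The genes around these were taken from 3 lists. Of the 30 death receptor and necroptosis partners, 29 were tested and 7 passed (24.1%, beside 25.2% of all features), 6 higher and 1 lower, with a median difference of 0.24. The genes that rose were Tnfrsf1a, TNF receptor 1 (0.70 ± 0.14, SE; adjusted p 0.0169), Tnfrsf10b, the TRAIL receptor (0.90 ± 0.20), the adaptors Tradd (0.85 ± 0.22) and Traf2 (0.52 ± 0.13), Zbp1, a sensor of Z-form nucleic acid that can activate RIPK3 (0.999 ± 0.27), and Birc3, the ubiquitin ligase cIAP2 (0.67 ± 0.21). The groups overlapped for Birc3, whose adjusted p of 0.0485 became 0.0748 with normexp background correction, 0.0505 with slide row as a block and 0.0513 with a trended and robust variance. Tnfrsf1a levels were 3.74, 3.75, 3.52 and 3.44 in controls and 4.44, 4.29 and 4.19 in KO hearts, and its second probe gave 0.61. Second probes of Traf2 and Zbp1 gave 0.12 and 0.42 and did not pass. The gene that fell was Map3k7, the kinase TAK1 that acts below the TNF receptor (-0.43 ± 0.12, SE), although 2 other probes gave -0.03 and -0.29 and did not pass. Ikbkg, the NEMO subunit of the IKK complex, had a difference of -0.62 ± 0.20 (SE; adjusted p 0.0507). No call was left without KO heart 1 or without KO heart 2; 3 genes passed without control heart 1, and 1, Tnfrsf1a, without control heart 3 or 4.

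Of the 32 inflammasome and pyroptosis partners, 26 were tested and 7 passed (26.9%, beside the same 25.2%), 5 higher and 2 lower, with a median difference of -0.02. The genes that rose were Il1b, interleukin-1β (2.02 ± 0.46, SE), Il18, interleukin-18 (0.99 ± 0.28), Gsdme, another gasdermin (1.13 ± 0.33), Nek7, the kinase that licenses NLRP3 (0.62 ± 0.17), and Naip2, a receptor for bacterial secretion systems (0.74 ± 0.22). Il1b was dim: its levels were -3.22, -2.50, -2.35 and -4.36 in controls, of which 3 were well above background, and -0.91, -0.95 and -1.41 in KO hearts. With normexp background correction its difference was 1.05. The genes that fell were Il18bp, the secreted binder that neutralises interleukin-18 (-1.37 ± 0.19, SE; adjusted p 0.0121), and Nlrp10 (-0.52 ± 0.12). Il18bp levels were 2.07, 1.84, 1.87 and 2.02 in controls and 0.28, 0.42 and 1.03 in KO hearts, so the groups lay well apart. Mefv, which encodes pyrin, had a difference of 3.00 ± 0.98 (SE; adjusted p 0.0574), with 2 of 4 controls well above background. That difference was 1.84 with normexp (adjusted p 0.0163), 2.17 as the mean over its probes (0.0518), 3.64 without control heart 2 (0.0238) and 2.28 without control heart 4 (0.102), and Mefv also passed with slide row as a block (0.0124) and with a trended and robust variance (0.0484). The call of Naip2 was lost in the authors' value table (0.0523). Without KO heart 1 none of these genes passed and without KO heart 2 only Il18bp did; Nlrp10, Il1b and Il18bp passed without control heart 1, 3 or 4, 4 genes passed without KO heart 3, and 12 passed without control heart 2.

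Of the 19 other caspases and their regulators, 18 were tested and 4 passed (22.2%, again beside 25.2%), 1 higher and 3 lower, with a median difference of -0.16. Cycs, cytochrome c, fell by 1.01 ± 0.15 on the log2 scale (SE; adjusted p 0.0123), with all 3 of its probes passing; its levels were 8.30, 8.02, 8.19 and 8.36 in controls and 7.01, 7.28 and 7.33 in KO hearts. Cradd, the adaptor of caspase-2, fell by 0.86 ± 0.17, though its other probe gave -0.24 and did not pass, and Diablo, a mitochondrial antagonist of the inhibitor of apoptosis proteins, fell by 0.54 ± 0.14. Apaf1, the scaffold of the apoptosome, rose (1.08 ± 0.33, SE), a call lost in the authors' value table (adjusted p 0.0575) and with quantile normalization (0.0581). Casp6 and the mitochondrial protease gene Htra2 had differences of -0.47 and 0.37 (adjusted p 0.0722 and 0.0616). The calls were 0 without KO heart 1, 1 without KO heart 2 (Cycs), and 2 without control heart 3 or 4 (Cycs and Cradd). Probes of Cycs and Naip genes may also read near-identical copies.

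Some leukocyte markers were higher in the same KO hearts. Over all features, 10.2% passed as higher and 15.0% as lower in KO hearts. Of the 8 markers listed for leukocytes in general, 4 rose (50%), namely Coro1a, Cd52, Tyrobp and Fcer1g. The other 4, Ptprc, Laptm5, Lcp1 and Cd53, did not pass. The median difference of the 8 markers was 1.33. Their summed level was 25.3 to 69.1 in controls and 90.1 to 139 in KO hearts. Here and below, sums were taken after conversion of the levels from log2 to the linear scale. Of 8 neutrophil markers tested, 6 rose (75%). Of these, Cxcr2, Mmp9 and Mmp8 were well above background in 0 of 4 controls, so they were kept through the KO hearts alone. Their differences of 3.63, 2.96 and 2.54 were 1.36, 0.77 and 0.72 with normexp background correction. S100a8 had levels of -1.83, -1.24, -2.08 and -2.13 in controls and of 2.24, 2.78 and -0.49 in KO hearts. The summed neutrophil level was 114 to 177 in controls and 102 to 178 in KO hearts, of which Csf3r, which did not pass, made up 80.7% to 99.2%. The centred mean of the list, in which each marker counts alike, was -1.40 to -0.46 in controls and 0.41 to 1.91 in KO hearts. It includes the control values of Cxcr2, Mmp9 and Mmp8, which were not well above background. Ngp and Ltf were not well above background in any heart. Of 13 monocyte and macrophage markers, 4 rose (30.8%), with summed levels of 114 to 147 in controls and 146 to 211 in KO hearts. Of 12 cardiomyocyte markers, 4 fell (33.3%) and none rose, with summed levels of 5963 to 8727 in controls and 5076 to 5793 in KO hearts. None of the 4 tested markers of T, NK and B cells passed with limma (1 at an unadjusted p under 0.05), and 5 of the list were not well above background in any heart. Of 5 hepatocyte and 4 erythroid markers tested, 4 and 3 fell (80% and 75%). The hepatocyte markers Alb and Fgb were well above background in 0 of 3 KO hearts, so they were kept through the control hearts alone. Their differences of -5.06 and -3.50 were -1.89 and -0.88 with normexp background correction. Fibroblast, endothelial and smooth muscle markers had 2, 1 and 1 calls among 10, 9 and 8 tested. These were 20%, 11.1% and 12.5%, beside 25.2% of all features in either direction. Control hearts 1 and 2 had higher centred means of the leukocyte markers (-0.11 and 0.14) than control hearts 3 and 4 (-1.29 and -1.14). Control hearts 1 and 2 also lay above control hearts 3 and 4 for Ripk3, Mlkl, Casp1 and Casp8, but not for Ripk1, Pycard, Casp4 and Gsdmd. They were also the controls in slide row 1. The part of leukocytes, of slide row or of fewer cardiomyocytes in the differences of the death genes was not tested, and in bulk tissue fewer cells of a type and less RNA per cell cannot be told apart.

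**Figure D4:**
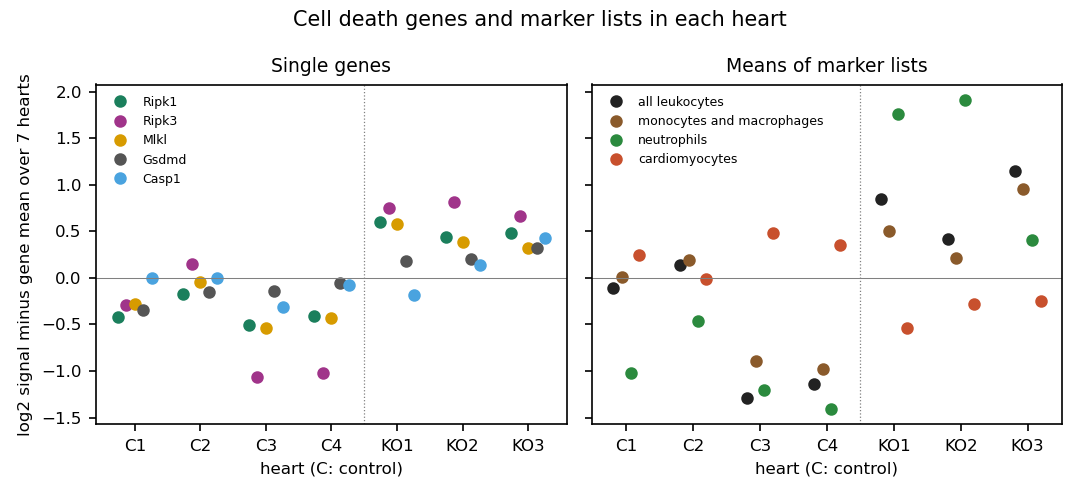
Levels of 5 death genes (left) and means of 4 marker lists (right) in each heart, in log2 units minus the mean over the 7 hearts; each point is 1 heart. Ripk1, Mlkl and Gsdmd are below 0 in all controls and above 0 in all KO hearts. In control heart 2, Ripk3 and the leukocyte mean (0.14) are above 0.

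The genes whose pattern over the 7 hearts was most like that of each gene were found by the root mean square difference of log2 values centred on the mean, among 13149 named genes. The nearest to Ripk1 were Cdk20 (0.0596) and Trim27 (0.0677), and the same 2 were nearest to Mlkl. Mlkl itself was the 8th nearest to Ripk1 (0.0959), and Ripk1 the 51st nearest to Mlkl. Aldh3b1 (0.0845) and Spsb2 (0.0878) were nearest to Ripk3, for which no other death gene came closer than rank 738. Ptpro and Nsdhl were nearest to Casp1, Foxp1 and Tmod3 to Casp4, and Krtap1-4 and Cyp2c38 to Pycard. Nadk and Daglb were nearest to Casp8 (0.0434 and 0.0445), and Ankrd23 and Pank3 to Gsdmd (0.0513 and 0.0638).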

How the data were processed

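RNA from 7 hearts (4 control, 3 KO) was labelled from 100 ng per sample and read on 1-colour arrays of 62976 spots each. The processed signal is an intensity that the authors' scanner software (Agilent Feature Extraction 11.0.1.1, per the file headers) background-corrected and deposited on a linear scale. The deposited value table of log2 values, with genes centred on their median over arrays (all rows had median 0), was used as an alternative; its correlation with the scanner differences was 0.986 to 0.998 and its percentile or target scale stays unknown. Here log2 signal minus each array's 75th percentile was computed, and 3671 control spots per array were left out. Probes had to be well above background in at least 3 hearts of a group (26571 were kept). The brightest per gene, with each probe without a symbol counted on its own, gave 22341 features, of which 13696 were named genes. Among named genes 28.3% passed, 12.3% higher and 15.9% lower in KO hearts. limma 3.58.1 in R 4.3.3 (lmFit, eBayes) tested KO against control, with Benjamini-Hochberg adjustment over all features; bounds ("at least") set the brighter group against the dim limit of the arrays. Probes were named through RefSeq accessions: 28026 had 1 symbol, 27655 none. Simulated data had 22302 features, those with a value in all 7 hearts (a spot flagged as an outlier has none). In them, 50 features were changed at each of 0.5, 1, 2 and 3 log2 units. Of these, 0%, 44%, 76% and 96% were recovered, and 7 of 115 calls were false. The changed share was far smaller than the 25.2% of features called in the data, so these rates do not give the power of the comparison here. The genes and lists were chosen with earlier results of these data known. The named genes are the 9 genes with all probes, up to 8 genes of each list with the lowest p and those at background in 1 group only, the 2 nearest genes by pattern, Mapk14, Esr1 and the leading markers. Replicate numbers did not pair hearts (correlations of deviations 0.184, -0.223 and -0.197). Labels name separate hearts, so p-values measure the spread between hearts. A gene that the naming rule covers is not reported here.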

Additional observations from a re-analysis of the deposited data

Results flagged for a closer look

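In 113 genes of the lists, the 4 control hearts were checked for a heart far from the others, a check that chance meets in about 1 of 20 groups, and 2 genes were found. Mmp9, a neutrophil protease gene, was at -5.06 in control heart 2, against -6.09 to -5.93 in the other controls. It was well above background in 0 of 4 controls, so the order of these values says nothing. Cspg4, a pericyte marker, was at 1.84 in control heart 1, against 2.30 to 2.36 in the other controls.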

How the results depend on the processing

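All 17 alternatives (9 of processing or design, 1 replicate block, 7 with a heart left out) kept all 8 differences above 0; Ripk1 passed in 15, Mlkl in 13, Ripk3 in 12 and Gsdmd in 4. Features called fell from 5640 to 1415 with no filter on low signal and to 9 with the replicate block (6505 at an unadjusted p under 0.05), and lay between 69 and 6971 with a heart left out (69 without KO heart 1, 1137 without KO heart 2, and 3266, 2701 and 2217 without control heart 1, 3 and 4). With no filter, 1 of the 9 genes passed (Ripk1; Ripk3 and Mlkl had adjusted p of 0.0632 and 0.0581), and the death receptor list had 0 calls (13 at an unadjusted p under 0.05, limma), the inflammasome list 2 and the other caspases 1. With the replicate block, which ties hearts by a number that the pairing check did not bear out and leaves control heart 4 alone, the genes had 0 calls (4 unadjusted; adjusted p 0.0674, 0.0758 and 0.0889 for Ripk1, Ripk3 and Mlkl) and the 3 lists 0, 0 and 0 (6, 6 and 4 unadjusted). With slide row as a block the inflammasome list had 11 calls. With a heart left out, calls lay between 0 and 3 for the genes, 0 and 9 for death receptor partners, 0 and 12 for inflammasome partners, and 0 and 6 for other caspases; the lowest were without KO heart 1. The causes were not tested. Signal near background limits Nlrp3, Il1b and Mefv.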

Other observations

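Il1rn, which encodes the interleukin-1 receptor antagonist, was below the filter on low signal: its levels were -5.82, -5.43, -5.95 and -5.77 in control hearts and -3.19, -3.35 and -4.28 in KO hearts. It was well above background in 0 of 4 controls and 2 of 3 KO hearts, at least 1.41-fold higher in KO hearts. Other list genes below the filter went both ways. Gsdmc and Naip1 were well above background in 1 of 3 KO hearts and 0 of 4 controls. Aim2 and Nlrp6 were so in 1 and 2 of 4 controls and in 0 of 3 KO hearts.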
